A study of Mus musculus with 6 samples.

Results

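T cell and thymocyte genes were examined one by one in aortic arches of atherosclerosis-prone mice. The set was chosen by name: 36 genes of the T lineage, made up of the T cell receptor complex and its coreceptors, receptor-proximal signalling proteins, surface receptors, 2 cytokine-axis genes, T lineage transcription factors, and the immature thymocyte genes Rag1, Dntt, Cd8b1 and Arpp21. Of the 36 genes, 31 were among the 14298 genes measured, 3 of the 4 immature thymocyte genes among them. Arpp21, Txk, Skap1, Cd96 and Lef1 were not analysed here. Measured genes had all reached about 1 CPM in at least 3 libraries (the lowest third-highest value was 1.05), so a T lineage gene high in fewer libraries than that could be missing from the measured set.

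PolyA RNA was sequenced from aortic arches of adult C57/BL6 mice. The 3 control libraries (S591, S592 and S594) came from ApoE-/-;RBPJflox/flox mice, and the 3 knockouts (S595, S598 and S599) from ApoE-/-;RBPJflox/flox;Cdh5-CreERT mice. Both groups therefore lack apolipoprotein E and carry floxed Rbpj alleles, were given tamoxifen when 8 weeks old, over 1 week, and then ate a high-fat diet for 6 weeks. Cdh5-CreERT is a tamoxifen-activated recombinase driven by the promoter of an endothelial cadherin gene, and the controls had no recombinase, so its presence and the loss of Rbpj cannot be told apart.

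T cells are made in the thymus, which lies close to the aortic arch in the mouse. Progenitors that receive a Notch signal switch on Tcf7, Gata3 and Bcl11b, then cut and rejoin their receptor gene segments with the recombinase of Rag1 and Rag2, while Dntt (terminal deoxynucleotidyl transferase) adds bases at the joints. Most thymocytes pass through a stage with both coreceptors, Cd4 and Cd8, on the surface, and cells that leave the thymus as mature T cells have switched off Rag1 and Dntt. T cells also enter the walls of arteries with atherosclerosis. The receptor subunits, Lck and most other genes of the set are expressed by thymocytes and by mature T cells alike, so Rag1 and Dntt are the members that set the immature stage apart within the T lineage, although B cell precursors use them too. Cd8b1, the beta chain of the Cd8 coreceptor, is shared with mature cytotoxic T cells.

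The results turn on Rag1, Dntt and Lck, whose upstream sequences are shown because the regulators of T cell development among the members bind promoters and enhancers of this kind. Each run is the 250 bases before a transcript start in RefSeq (build GRCm38.p6), read 5′ to 3′ along the gene, and capitals mark matches to motifs on either strand: TGTGGT for RUNX factors, CAGNTG for E proteins, AGATAA for GATA factors and CTTTGA for TCF and LEF factors. Lck has a pair of starts 15269 bases apart, of which the upstream one is given as start 1 and the downstream one as start 2. The windows are chr2:101649533-101649782 (minus strand) for Rag1, chr19:41029025-41029274 (plus strand) for Dntt, chr4:129573642-129573891 (minus strand) for Lck start 1 and chr4:129558373-129558622 (minus strand) for Lck start 2.
Rag1: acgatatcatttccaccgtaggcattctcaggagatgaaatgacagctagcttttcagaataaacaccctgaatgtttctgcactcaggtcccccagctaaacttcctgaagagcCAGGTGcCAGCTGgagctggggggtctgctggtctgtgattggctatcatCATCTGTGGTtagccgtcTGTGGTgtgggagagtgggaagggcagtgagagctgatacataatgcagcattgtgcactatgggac
Dntt: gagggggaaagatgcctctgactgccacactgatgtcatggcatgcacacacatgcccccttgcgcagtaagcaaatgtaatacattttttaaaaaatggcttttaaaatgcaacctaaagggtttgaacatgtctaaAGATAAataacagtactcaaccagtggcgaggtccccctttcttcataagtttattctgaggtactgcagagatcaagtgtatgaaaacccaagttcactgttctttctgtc
Lck start 1: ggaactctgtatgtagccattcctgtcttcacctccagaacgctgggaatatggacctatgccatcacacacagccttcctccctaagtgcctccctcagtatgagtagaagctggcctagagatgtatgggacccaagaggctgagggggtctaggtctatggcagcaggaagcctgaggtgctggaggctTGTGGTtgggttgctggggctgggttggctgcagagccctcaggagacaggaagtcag
Lck start 2: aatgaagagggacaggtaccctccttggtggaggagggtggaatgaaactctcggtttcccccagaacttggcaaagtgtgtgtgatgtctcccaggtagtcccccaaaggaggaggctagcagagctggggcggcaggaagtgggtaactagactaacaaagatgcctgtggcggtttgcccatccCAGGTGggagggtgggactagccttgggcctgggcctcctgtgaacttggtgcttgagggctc
The Rag1 window held 2 matches to the RUNX motif, at -81 and -67 from the start, and 3 to the E protein motif, at -135, -128 and -85. The E protein match at -85 overlaps the RUNX match at -81 and prints as 1 run of capitals. The Dntt window held 1 GATA match, at -112, the window of Lck start 1 held 1 RUNX match, at -58, and that of Lck start 2 held 1 E protein match, at -63. None of the 4 windows held the TCF and LEF motif. RefSeq gave 34 windows for 23 members, of which 16 windows held the E protein motif, 4 the RUNX motif, 3 the TCF and LEF motif and 2 the GATA motif. Among 32851 mouse windows of the same length, 44.8% held the E protein motif, 14.0% the RUNX motif, 13.8% the TCF and LEF motif and 9.99% the GATA motif. These are matches of 6 letters, not measured binding.

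Values are CPM (read counts scaled to a normalised library size), called normalised CPM below. Between 5904504 and 10072495 reads per library fell on the measured genes, and 1 read was worth 0.0964 to 0.178 normalised CPM. Members were therefore counted from few reads: 12 of the 31 had at least 1 library with 5 reads or fewer, and member means over the 6 libraries ran from 1.25 to 67.3 normalised CPM. The targeted gene, Rbpj, stood at 174, 191 and 200.4 normalised CPM in the controls and at 169, 197 and 212 in the knockouts, a log2 difference of 0.03 (adjusted p = 0.923, limma) in RNA of the whole arch, of which endothelial cells are a part. Markers of the labelled tissue were present, with 6 of 6 smooth muscle and 10 of 10 endothelial markers measured in every library.

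The 3 measured genes of the immature stage had their highest values in knockout libraries S598 and S599, and knockout library S595 resembled the controls. Rag1 (ENSMUSG00000061311) read 5.24, 2.62 and 3.78 normalised CPM in controls S591, S592 and S594, and 2.51, 47.9 and 12.8 in knockouts S595, S598 and S599. Dntt (ENSMUSG00000025014) read 1.69, 0.872 and 1.42 in the controls, and 1.29, 23.5 and 7.16 in the same order of knockouts. Cd8b1 (ENSMUSG00000053044) read 1.51, 1.01 and 1.42 against 0.989, 19.6 and 3.38. In each of the 3 genes S598 was highest and S599 came next, and S595 lay below or within the range of the controls, so the groups overlapped. The reads behind these values were 29, 19 and 30 for Rag1 in the controls and 16, 496 and 81 in the knockouts.

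Against the controls pooled, Rag1 in S598 was 13.0-fold higher (95% exact counting interval 10.2 to 16.7) and in S599 3.46-fold higher (2.50 to 4.78), and in S595 the ratio was 0.66 (0.360 to 1.14). For Dntt the ratios were 19.1 (12.7 to 29.8) in S598, 5.76 (3.48 to 9.72) in S599 and 0.991 (0.388 to 2.25) in S595. For Cd8b1 they were 15.9 (10.6 to 24.97), 2.69 (1.44 to 4.97) and 0.743 (0.250 to 1.85). These intervals cover counting error only and compare single libraries, not genotypes. Per kilobase of exon, Rag1 went from a control mean of 0.587 normalised CPM to 7.24 in S598, Dntt from 0.579 to 10.2 and Cd8b1 from 0.886 to 13.2. In bulk tissue, more cells of a type and more RNA per cell cannot be told apart.

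Between genotypes none of these 3 differences passed the test. Rag1 was 3.88 ± 1.32 normalised CPM (SD, n = 3) in controls and 21.1 ± 23.8 in knockouts, a log2 difference of 1.49 (SE 0.83, limma adjusted p = 0.361). Dntt was 1.33 ± 0.417 and 10.6 ± 11.5, a log2 difference of 1.74 (SE 0.74, limma adjusted p = 0.248). Cd8b1 was 1.31 ± 0.270 and 8.00 ± 10.1, a log2 difference of 1.29 (SE 0.74, limma adjusted p = 0.375). In each of the 3 the knockout SD exceeded the knockout mean. All fold changes here are on the scale of log2(value + 1), which understates the change of genes with few reads.

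**Figure D1:**
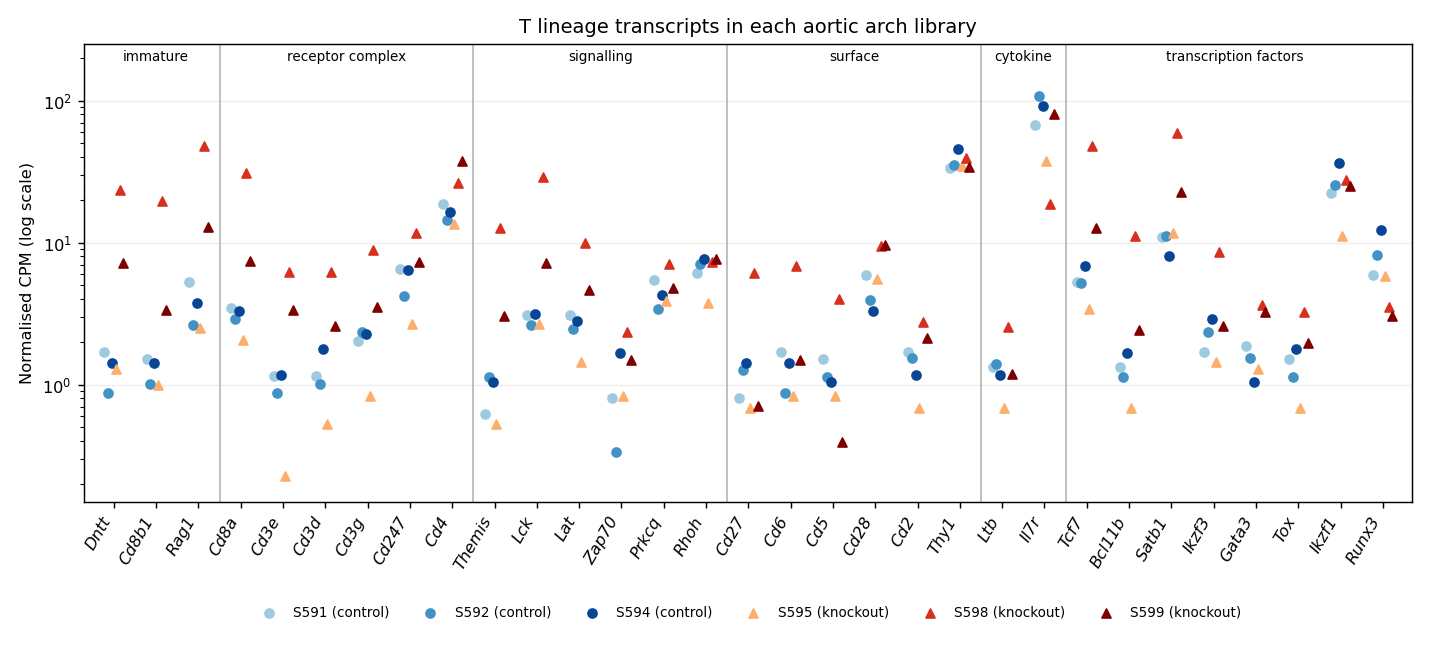
Normalised CPM (vertical log axis) of the 31 measured T cell and thymocyte genes, grouped by role, with circles for the control and triangles for the knockout libraries. The triangles spread widely: for most genes S598 lies above and S595 at or under the controls, as for Rag1 at 47.9 and 2.51.

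The T cell receptor complex was next. Its Cd3 subunits, encoded by Cd3d, Cd3e, Cd3g and Cd247, carry the signal of the receptor into the cell, and Cd4 and Cd8a are the coreceptors that bind class II and class I histocompatibility molecules. Cd3e (ENSMUSG00000032093) read 1.15, 0.872 and 1.18 normalised CPM in the controls and 0.228, 6.22 and 3.38 in knockouts S595, S598 and S599. Its S595 value rests on 1 read. Cd3d read 1.15, 1.01 and 1.796 against 0.533, 6.22 and 2.595, and Cd3g read 2.04, 2.35 and 2.29 against 0.837, 8.82 and 3.54. Cd247, the zeta chain, read 6.49, 4.22 and 6.38 against 2.66, 11.7 and 7.31. In these 4 genes S595 was below every control, and S598 and S599 were above every control.

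For both coreceptors too S595 lay below and S598 and S599 above every control, but they differed in which knockout was highest. Cd8a read 3.46, 2.88 and 3.28 normalised CPM in the controls and 2.05, 30.8 and 7.47 in the knockouts, with a ratio to pooled controls of 9.86 (7.54 to 13.1) in S598 and 2.37 (1.59 to 3.50) in S599. Cd4 read 18.6, 14.4 and 16.5 against 13.5, 26.4 and 37.7, with ratios of 1.62 (1.38 to 1.90) and 2.31 (1.95 to 2.73). Cd4 was thus highest in S599, whereas the other 5 genes of the complex were highest in S598. The ratio of Cd8a to Cd4 was 0.187, 0.200 and 0.199 in the controls, 0.153 in S595, 1.17 in S598 and 0.198 in S599. S598 stood apart in that ratio while S599 lay within the controls. Per kilobase of exon, the control mean of Cd4 was 4.09 normalised CPM, beside 0.883 for Cd8a and 0.262 for Cd3e. Which cells carried Cd4 was not tested. All 6 genes of the complex had a positive log2 difference between genotypes, from 0.14 (Cd247) to 1.157 (Cd8a), with limma adjusted p from 0.417 to 0.886.

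Of the proximal signalling proteins, Lck, the kinase that starts receptor signalling, had the largest number of reads in S598. Lck (ENSMUSG00000000409) read 3.11, 2.62 and 3.16 normalised CPM in the controls and 2.66, 29.1 and 7.16 in the knockouts, from 17, 19 and 25 against 17, 301 and 45 reads. S598 was 10.1-fold above the pooled controls (7.62 to 13.5), and S595 lay within the controls. The log2 difference between genotypes was 1.29 (SE 0.66, limma adjusted p = 0.327). Themis, which sets the signalling threshold during thymocyte selection, read 0.622, 1.14 and 1.05 against 0.533, 12.6 and 3.07, with S598 at 14.0 times the pooled controls (8.59 to 23.9).

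The adaptor Lat, a scaffold phosphorylated after receptor triggering, read 3.11, 2.48 and 2.79 normalised CPM in the controls and 1.45, 9.88 and 4.64 in the knockouts, the same order as the Cd3 subunits. The kinase Zap70, recruited to the phosphorylated receptor, read 0.800, 0.335 and 1.67 against 0.837, 2.36 and 1.49. Prkcq, protein kinase C theta, read 5.42, 3.42 and 4.27 against 3.88, 7.09 and 4.80. The GTPase Rhoh, also expressed by other blood cells, read 6.13, 7.04 and 7.62 against 3.73, 7.28 and 7.63. Zap70, Prkcq and Rhoh spread less among the knockouts than Lck and Themis did, and Rhoh in S598 lay inside the range of the controls. Across the 6 signalling genes the log2 differences ran from -0.18 (Rhoh) to 1.29 (Lck), 5 of them positive, and the limma adjusted p from 0.327 to 0.738.

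Among the surface receptors Cd28, the costimulatory receptor of naive T cells, was higher in S598 and S599 than in the other libraries. It read 5.95, 3.96 and 3.28 normalised CPM in the controls and 5.55, 9.50 and 9.67 in the knockouts, so S595 lay within the controls and the other knockouts above them. Cd28 was 4.40 ± 1.39 in controls and 8.24 ± 2.33 in knockouts (SD, n = 3), a log2 difference of 0.77 (SE 0.27, limma adjusted p = 0.182). Cd27, a receptor of the tumour necrosis factor family, read 0.800, 1.27 and 1.42 against 0.685, 6.12 and 0.708. Cd5, which dampens receptor signalling, read 1.51, 1.14 and 1.05 against 0.837, 4.001 and 0.393, the last value from 2 reads. For Cd27 and Cd5 only S598 was above the controls, and S599 was below them.

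Cd6, an adhesion receptor related to Cd5, read 1.69, 0.872 and 1.42 normalised CPM in the controls and 0.837, 6.89 and 1.49 in the knockouts. Cd2, another adhesion receptor, read 1.69, 1.54 and 1.18 against 0.685, 2.75 and 2.12. Thy1, which fibroblasts also express, read 33.3, 35.2 and 45.5 against 34.6, 39.7 and 34.1, and S598 was 1.04 times the control mean. Thy1 is thus a member with a high level in every library and no wide spread. Per kilobase of exon its control mean of 12.7 normalised CPM was second only to that of Il7r at 19.1, whereas Themis was lowest at 0.0803. The 6 surface genes had log2 differences from -0.06 (Thy1) to 0.77 (Cd28), 5 of them positive.

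Il7r, the interleukin 7 receptor chain needed for survival of T lineage cells and also carried by innate lymphoid cells, ran the other way in S598. It read 67.8, 107 and 92.2 normalised CPM in the controls and 37.4, 18.6 and 80.8 in the knockouts. S598 had 0.203 times the pooled control level (0.174 to 0.236), S595 0.410 times (0.357 to 0.468) and S599 0.887 times (0.803 to 0.978), and S599 lay within the controls. The means were 89.1 ± 19.97 and 45.6 ± 31.9 (SD, n = 3), a log2 difference of -1.17 (SE 0.46, limma adjusted p = 0.219). Ltb, lymphotoxin beta, read 1.33, 1.41 and 1.18 against 0.685, 2.56 and 1.18, with a log2 difference of 0.03. As background, Il7r is switched off in thymocytes with both coreceptors and on again in mature T cells. In S595 Il7r stood at 37.4 and Rag1 at 2.51, little below its lowest control value of 2.62. The interval of Rag1 in S595, 0.360 to 1.14 times the pooled controls, included equality. The cause of the low Il7r values was not tested. The control mean of Il7r, 89.1, stood beside 1.07 for Cd3e, and which cells carried Il7r was not tested.

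The transcription factors split between those that tracked Rag1 across libraries and those that did not. Tcf7, encoding TCF1, the first factor of the T lineage programme, read 5.24, 5.16 and 6.87 normalised CPM in the controls and 3.42, 47.6 and 12.7 in the knockouts. Bcl11b, which locks cells into the T lineage, read 1.33, 1.14 and 1.67 against 0.685, 11.1 and 2.44. Satb1, a chromatin organiser abundant in thymocytes and also present in other cells, read 10.9, 11.1 and 8.11 against 11.6, 59.2 and 22.9. Tcf7 and Bcl11b had S595 below and S598 and S599 above every control. Satb1 was the member with all 3 knockouts above all 3 controls, with a mean of 10.04 ± 1.67 in controls and 31.2 ± 24.8 in knockouts and a log2 difference of 1.26 (SE 0.50, limma adjusted p = 0.217). S595 differed from the highest control by little, at 11.6 against 11.1, and its interval against the pooled controls was 0.892 to 1.54.

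Gata3, the factor of early thymocytes and helper T cells, read 1.87, 1.54 and 1.05 normalised CPM in the controls and 1.29, 3.62 and 3.22 in the knockouts. Tox, required for the Cd4 lineage, read 1.51, 1.14 and 1.796 against 0.685, 3.23 and 1.97. Ikzf3 (Aiolos) read 1.69, 2.35 and 2.91 against 1.45, 8.63 and 2.595. S598 was highest for all 3, by smaller ratios to the control mean (2.18 to 3.73) than for Tcf7 (8.26). Ikzf1 (Ikaros), expressed throughout the blood lineages, read 22.3, 25.3 and 36.4 against 11.2, 27.4 and 24.9, with S598 and S599 inside the range of the controls.

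Runx3, the factor of cytotoxic T cells that is also expressed by macrophages and dendritic cells, was the member with all 3 knockouts below all 3 controls. It read 5.95, 8.11 and 12.3 normalised CPM in the controls and 5.86, 3.52 and 3.07 in the knockouts. S595 differed from the lowest control by little, and S598 had 0.382 times the pooled control level. The means were 8.80 ± 3.24 and 4.15 ± 1.498 (SD, n = 3), a log2 difference of -0.91 (SE 0.30, limma adjusted p = 0.162), the smallest adjusted p among the members. Across the 8 transcription factors 6 log2 differences were positive and 2 negative.

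No member passed limma at an adjusted p of 0.05 in either direction, where 0.021% of all genes passed (3 genes, all higher in knockouts). At an unadjusted limma p under 0.05 the members held 3 higher (Cd28, Satb1 and Dntt) and 2 lower (Runx3 and Il7r), against 8.04% of all genes higher and 12.0% lower. On whole reads recovered from the values, edgeR's quasi-likelihood test and limma-voom called no member and no gene (0.0% each). DESeq2 on those reads called 4 members higher: Dntt (adjusted p = 0.00738), Satb1 (0.0219), Lck (0.0374) and Cd8b1 (0.0399). DESeq2 called 6.69% of the genes it adjusted, 2.13% as higher and 4.56% as lower, and gave no adjusted p for 5 members (Zap70, Cd2, Cd5, Ltb and Tox). The call of those 4 genes therefore depends on the test used.

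Of the 31 members 26 had a positive log2 difference, against 47.8% of all genes, and the median over the members was 0.49, against -0.02 over all genes. This rests on 1 library: without S598 the median was 0.0028, and without S598 and S599, which leaves S595 as the lone knockout, it was -0.44. Leaving out S595 instead gave 0.90. Groups that did not overlap were found for Satb1 (higher) and Runx3 (lower), 2 of 31, where 11.3% of all genes did not overlap with knockouts higher and 14.2% with knockouts lower. Without S595, 20 members did not overlap, 19 of them higher. Groups separate more easily with fewer libraries, and the shares of all genes given here are for all 6 libraries.

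The libraries themselves carried the pattern. S598 was the highest of the 6 libraries for 24 of 31 members, where 17.7% of all genes were highest there, and S599 for 3 (Cd4, Rhoh and Cd28), where the share was 15.1%. S595 was the lowest for 20 members, where the share over all genes was 15.3%. The order S598 first and S599 second held for 17 members, and for 7.08% of all genes. In S598, 15 members reached at least 3 times the highest control, as 0.385% of all genes did. S598 lay above every control for 26 members (30.7% of all genes), S599 for 20 (28.8%) and both for 19 (19.5%).

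S595 went the other way. It lay below every control for 23 members, where 30.7% of all genes did so, and for 19 members S595 was below and S598 above every control, as for 3.33% of all genes. Relative to the control mean, the member in the middle of the ranking was at 0.624 in S595, 3.54 in S598 and 1.597 in S599. By counting intervals against the pooled controls, S598 was above for 26 members and below for 2 (Il7r and Runx3), S599 was above for 13 and below for 2, and S595 was above for none and below for 8. The 8 were Cd3e, Cd3g, Cd247, Rhoh, Il7r, Tcf7, Ikzf1 and Runx3. These intervals cover counting error only and are narrower in deeper libraries. No share over all genes is set beside the interval counts, so they describe the members alone. By position against every control, S598 and S599 thus lay above for most members and S595 below. Il7r and Runx3 had intervals below the pooled controls in all 3 knockouts.

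**Figure D2:**
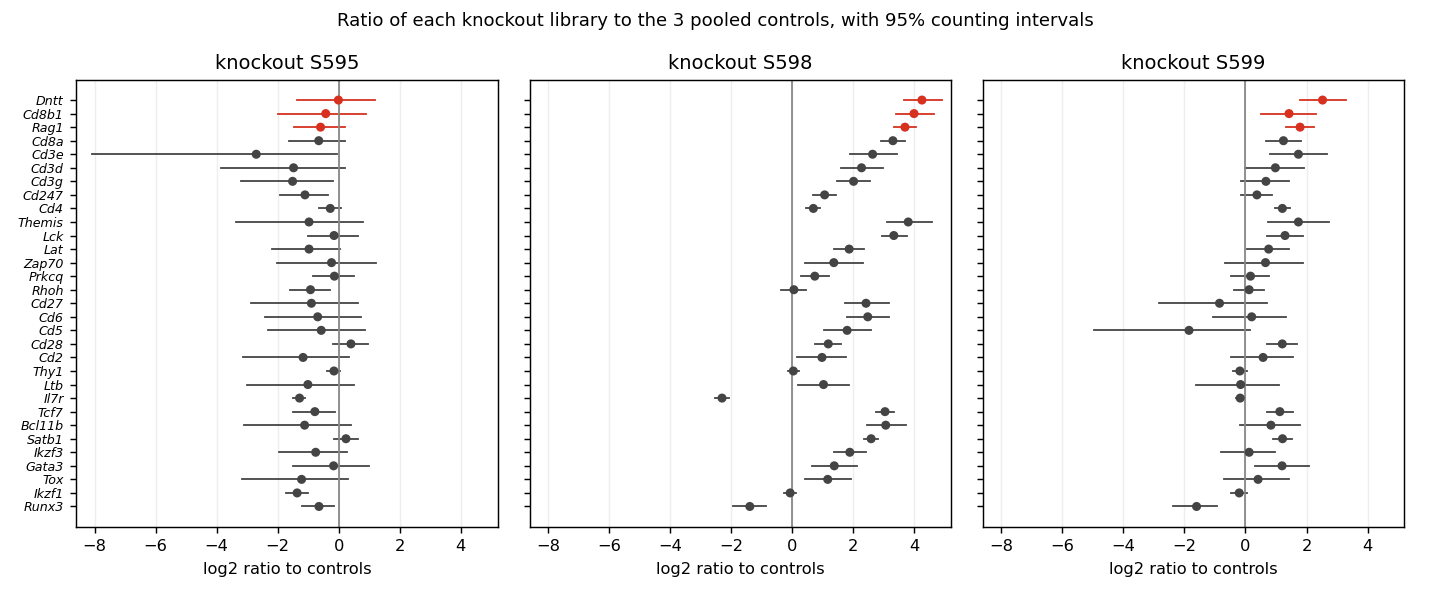
Log2 ratio of each knockout library to the 3 pooled controls for the 31 members, 1 panel per library, with lines for 95% exact counting intervals, immature genes in red and 0 marking equality. S598 runs from a ratio of 0.203 for Il7r to 19.1 for Dntt, S599 lies nearer to equality, and S595 lies at or under it for most genes.

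The immature genes were then set beside T cell receptor genes in each library. Rag1, Dntt and Cd8b1 summed to 8.44, 4.49 and 6.63 normalised CPM in the controls and to 4.79, 91.0 and 23.4 in knockouts S595, S598 and S599. The 9 T cell genes Cd3d, Cd3e, Cd3g, Cd247, Lck, Cd2, Cd5, Cd6 and Cd28 summed to 24.8, 18.6 and 21.7 in the controls and to 14.8, 85.2 and 37.7 in the knockouts. S598 was thus 14.0 times the control mean for the immature sum and 3.93 times for the T cell sum, S599 3.58 and 1.74 times, and S595 0.735 and 0.684 times. Thymocytes express the 9 genes as well, so the second sum does not count mature cells alone.

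The immature sum divided by the T cell sum was 0.341, 0.242 and 0.305 in the controls, 0.323 in S595, 1.07 in S598 and 0.620 in S599. S595 fell in the range of the controls, and S598 and S599 lay above it. The means were 0.296 ± 0.0499 in controls and 0.670 ± 0.375 in knockouts (SD, n = 3). With Rag1 and Dntt alone as the immature genes the control mean was 0.236, and the S598 and S599 values were 0.838 and 0.530. Taken as the amount above the control mean, S598 held 84.4 normalised CPM of the immature genes for 63.5 of the T cell genes, a ratio of 1.33, and S599 held 16.8 for 15.97, a ratio of 1.05. The immature genes were present in the controls as well, where the summed level was 6.52 ± 1.98.

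**Figure D3:**
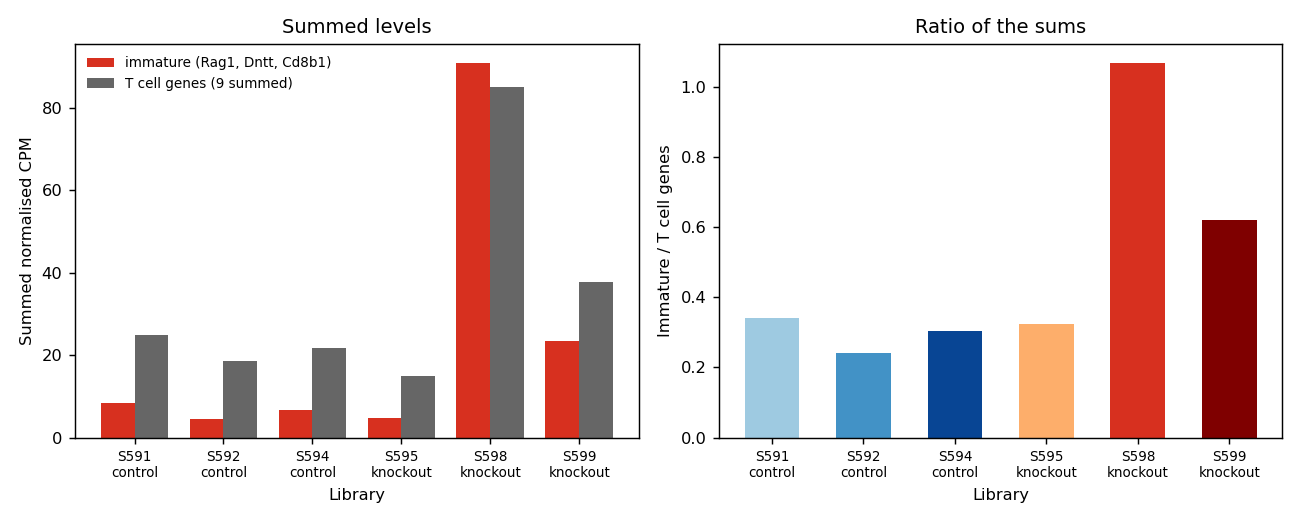
Left, summed normalised CPM of the immature genes Rag1, Dntt and Cd8b1 (red bars) and of the 9 T cell genes (grey bars) in each library; right, the ratio of the sums, 1 bar per library with no error bar. S598 (ratio 1.07) and S599 (0.620) lie above the controls (0.242 to 0.341), and S595 (0.323) lies among them.

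Pairs of genes were compared within each library, where normalisation cancels. Dntt over Rag1 was 0.322, 0.333 and 0.377 in the controls and 0.515, 0.490 and 0.558 in S595, S598 and S599. Cd8b1 over Cd8a was 0.436, 0.349 and 0.434 against 0.481, 0.637 and 0.453. Rag1 over Lck was 1.69, 1.00 and 1.20 against 0.943, 1.65 and 1.79, with S598 inside the range of the controls although Rag1 was 13.0 and Lck 10.1 times the pooled controls there. For 24 members above the control mean in both S598 and S599, the amount above it in S598 divided by that in S599 had a median of 3.84. It was 4.92 for Rag1, 3.80 for Dntt and 8.85 for Cd8b1. The 3 highest values were 33.5 for Cd6, 22.6 for Ikzf3 and 9.23 for Bcl11b, and the 4 lowest were 0.466 for Cd4, 0.501 for Rhoh, 0.967 for Cd28 and 1.23 for Gata3. For Cd6 and Ikzf3 the amount in S599 was only 0.166 and 0.280 normalised CPM. In S599 1 read was worth 0.157, so these ratios rest on few reads. For Cd4, Rhoh and Cd28 the amount above the controls was larger in S599 than in S598.

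Further immature thymocyte genes gave a mixed picture. Of 7 listed, 5 were measured, with a median log2 difference of 0.26, none called by limma and none at an unadjusted p under 0.05. Ccr9, the chemokine receptor of thymocytes and gut-homing T cells, read 1.15, 1.01 and 1.05 normalised CPM in the controls and 0.837, 17.2 and 4.80 in the knockouts, a log2 difference of 1.48 (limma adjusted p = 0.299). This order of libraries was that of Rag1. Tcf12, an E protein of many cell types, read 94.6, 93.5 and 94.3 against 105, 105 and 110.3. Rag2 and Ptcra (pre-T cell receptor alpha) were not analysed here.

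Genes of mature and effector T cells did not share the S598 level of Rag1. Of 28 listed, 14 were measured, with a median log2 difference of -0.09, 5 positive and 9 negative, none called by limma and 2 lower at an unadjusted p under 0.05. They summed to 93.1, 124 and 135 normalised CPM in the controls and to 77.6, 108 and 97.8 in the knockouts, so S598 lay among the controls. Ccr7, which guides naive T cells and dendritic cells to lymph nodes, read 2.40, 3.69 and 6.13 against 1.29, 2.17 and 1.49 (limma adjusted p = 0.176). S1pr1, the exit receptor of thymocytes that endothelial cells express strongly, read 52.7, 67.5 and 61.9 against 36.1, 41.4 and 55.6. S1pr1 was the largest part of the sum, so the sum does not count mature T cells alone. Gene by gene, the 14 stood at 0.302 to 1.55 times their control mean in S598. Foxp3, Ctla4, Cd40lg, Ifng, Tbx21, Eomes and Nkg7 were among those not analysed here.

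Other receptor and signalling genes, some of them shared with myeloid cells, did not all have the same order of libraries. Of 17 listed, 11 were measured, with a median log2 difference of -0.20, none called by limma, and 1 higher and 4 lower at an unadjusted p under 0.05. Vav1, an exchange factor of all leukocytes, read 41.8, 64.7 and 75.3 normalised CPM in the controls and 23.2, 17.9 and 33.4 in the knockouts (limma adjusted p = 0.110), and the leukocyte surface gene Cd52 read 24.6, 31.9 and 49.9 against 15.9, 13.2 and 16.6 (0.111). Named after their values were seen, Trbc2, a constant segment of the receptor beta chain, read 2.22, 1.14 and 1.05 against 2.05, 22.1 and 6.84. Trbc1 read 0.622, 1.94 and 1.18 against 0.0761, 11.6 and 1.18, and since Trbc1 and Trbc2 are near-identical, reads could be split between them. In Trbc2, as in Lck, S598 was highest and S599 next, which was not so for Vav1 and Cd52. The order S598 first and S599 second held for 3 of the 11 genes, and for 7.08% of all genes.

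Leukocyte genes as a whole were lower in the same libraries. Ptprc (CD45), carried by all leukocytes, read 109, 164 and 191 normalised CPM in the controls and 62.0, 85.0 and 109.5 in the knockouts, a log2 difference of -0.84 (limma adjusted p = 0.146). All 8 pan-leukocyte genes had negative log2 differences (median -0.94, 0 called by limma), and their sum was 845 to 1311 in the controls and 508, 457 and 749 in S595, S598 and S599. Of 10 macrophage markers 9 were negative (median -1.17), with a sum of 4862 to 8237 in the controls and 2633, 2066 and 5033 in the knockouts. S598, with the highest T lineage values, thus had the lowest pan-leukocyte and macrophage sums. Notch1, the receptor that drives T lineage entry and is also endothelial, read 44.2, 42.2 and 50.6 against 32.9, 32.7 and 28.9 (log2 difference -0.52, limma adjusted p = 0.111).

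Markers of tissues near the arch were checked in the same libraries. Of 14 thymic epithelium markers 4 were measured: Pax9 read 1.69, 2.08 and 1.67 normalised CPM in the controls and 1.45, 4.001 and 4.33 in the knockouts, Ccl25 0.872 to 1.796 in controls and 0.837, 2.75 and 1.81 in knockouts, Pax1 1.51 to 2.04 and 1.49 to 1.90, and the fourth, Ctsl, is a protease that macrophages also express. Their sum, nearly all Ctsl, ran from 1974 to 3469 in the controls and was 1304, 901 and 2280 in S595, S598 and S599. Foxn1, Psmb11 and Prss16, the defining genes of that epithelium, were not analysed here. The part of thymic tissue in the S598 and S599 values was not tested.

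Of 12 airway, thyroid and parathyroid markers 4 airway genes were measured, and they summed to 2.31, 3.76 and 8.18 normalised CPM in the controls and 81.7, 83.0 and 62.0 in the knockouts. The airway secretory genes Scgb1a1 and Bpifa1 passed limma (adjusted p = 0.0317 for each). These genes were as high in S595 as in S598, unlike the immature thymocyte genes, and their part in the member values was not tested. Of 6 lymph node stroma markers 3 were measured, at a sum of 26.6 to 65.0 in the controls and 25.5, 15.3 and 13.3 in the knockouts. B cell markers (8 of 15 measured) summed to 155 to 178 in the controls and 137, 221 and 172 in the knockouts, with 4 positive and 4 negative log2 differences. Among them Ighm, the heavy chain of immunoglobulin M, read 28.5, 21.5 and 33.1 against 16.7, 117 and 44.6, and the B cell precursor genes Vpreb1, Vpreb3 and Igll1 were not analysed here. The B cell sum mixed genes that moved in opposite directions. Ebf1, a large part of it, read 64.6, 52.1 and 39.6 against 74.6, 66.2 and 71.3, whereas Cd22 and Cd72 were below every control in all 3 knockouts.

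Natural killer markers (2 of 10 measured) summed to 4.26 to 6.44 normalised CPM in the controls and 3.96 to 5.01 in the knockouts. Genes of gamma delta T cells and innate lymphoid cells (5 of 8 measured) summed to 41.2 to 48.6 and 42.4 to 49.1. Dividing cells abound among early thymocytes, and all 10 cell cycle genes had negative log2 differences (median -0.43), with a sum of 88.3, 111 and 206 in the controls and 79.1, 115 and 91.4 in the knockouts. In S598 none of these 3 sums lay above the range of the controls.

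**Figure D4:**
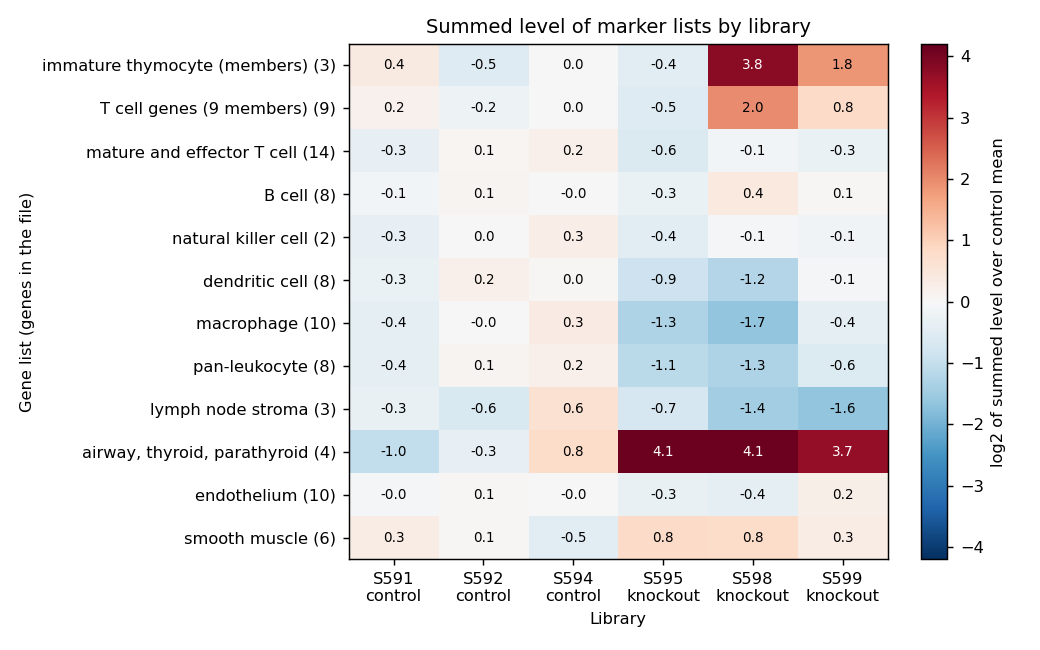
Heat map of the summed level of each gene list (rows, number of measured genes in brackets) in each library (columns), as log2 of the ratio to the control mean, printed in the cell and shown by colour. As plain ratios, the immature thymocyte sum reaches 14.0 in S598 and 3.58 in S599 with S595 at 0.735, whereas the airway sum is high in all 3 knockouts and the pan-leukocyte and macrophage sums are below 1 in all 3.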

How the data were processed

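PolyA RNA of 6 aortic arch libraries was sequenced after TruSeq v2 preparation (RNA integrity at least 7.9), per the labels' protocols. Build NCBIM37 and the tools Bowtie 0.12.7, RSEM 1.16, edgeR, limma, CASAVA 1.8 and cutadapt 1.6.1 are named, without their roles, in the submitters' processing notes. The authors deposited a linear, normalised signal. Checked on the values, it is CPM of (reads + 0.5) over a TMM-scaled library size, and whole reads were recovered from 100% of them (tolerance 0.01). The columns give group and library number, not the sample, and nothing in the labels says whether libraries came from single mice, so p-values measure the spread between these libraries. The listed genes hold 5904504 to 10072495 reads per library, which is not the total depth.

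Groups were compared with limma 3.58.1 (R 4.3.3), its variance trend set on and no covariates, on log2(value + 1) over all 14298 genes, and p-values were two-sided with Benjamini-Hochberg adjustment. The edgeR 4.0.16 quasi-likelihood test, DESeq2 1.42.0 and limma-voom were run on the recovered reads. Symbols were matched for 13828 of 14298 identifiers. Lengths for values per kilobase are the union of exons in another annotation release, and the authors' counting of overlapping genes and strand is not given in the sources used here. Every member could be named. Of each other list, those named are the 3 with the highest mean and the 2 with the smallest p, besides Ptprc, Notch1 and genes said to be named after their values were seen, and markers given to describe what a list holds. Of the genes in those other lists, 2 are not reported here by name. Members and lists were chosen with earlier results of these data known.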

Additional observations from a re-analysis of the deposited data

How the results depend on the processing

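No paired analysis was possible because the columns carry library numbers and no replicate number. No member was called by limma under any alternative pseudocount, filter, scaling, variance model or left-out library, nor by edgeR or limma-voom, and DESeq2 called 4. The count of genes called, 3, was 0 at pseudocounts of 0.1 and 0.5, with a mean of at least 5 CPM, with edgeR or limma-voom, and without S598 and S599. It was 1 without the intensity trend, 1011 with array weights and 900 with DESeq2, and ran from 0 to 671 when each library was left out, with 671 without S591, 6 without S595, 2 without S594 and 0 without S592, S598 or S599.

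The median log2 difference over the members, 0.49, ran from 0.0028 (without S598) to 0.90 (without S595), and was -0.44 without S598 and S599. Members whose groups did not overlap numbered 2, were 1 under library median scaling and 24 without S598 and S599 (1 knockout library), and ran from 2 to 20 (without S595) when each library was left out. Groups separate more easily with fewer libraries, and no share over all genes is set beside the counts with libraries left out. The ratio of immature to T cell sums was 0.296 in controls. It was 0.236 without Cd8b1, 0.0271 over the sum of the other members and 6.03 over Cd3e alone. The knockout ratio, 0.670, was 0.110 over the other members, 14.2 over Cd3e and 2.92 as a ratio of mean log2 values. In S595 most of the 9 T cell genes lay below 1 normalised CPM, where log2 values are negative. Their mean log2 there is a very small divisor, which raised the 2.92, so that value does not measure an excess in S598 or S599. Over Cd3e the order of libraries changed. S595 was highest at 21.0, from 1 Cd3e read, and S598 was at 14.6. S599, at 6.91, lay within the controls (5.15 to 7.31). Leaving out Arpp21 changed nothing, since it was not analysed.

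Signs turned for Thy1 (0.0022) under library median scaling and for Ltb (-0.016) and Cd5 (-0.094) at a pseudocount of 0.1. Over single left-out libraries the log2 difference ran across 0 for Cd2 (-0.10 to 0.48), Cd247 (-0.26 to 0.64), Cd27 (-0.34 to 0.70), Cd3g (-0.16 to 1.05), Cd5 (-0.48 to 0.45), Cd6 (-0.10 to 0.95), Ikzf3 (-0.14 to 0.84), Lat (-0.027 to 1.05), Ltb (-0.27 to 0.27), Tox (-0.14 to 0.52), Rhoh (-0.34 to 0.10) and Thy1 (-0.15 to 0.071). The lowest value of the first 10 was that without S598. Without S598 and S599 these turned negative: Dntt -0.0053, Zap70 -0.017, Gata3 -0.10, Lck -0.11, Prkcq -0.12, Cd8b1 -0.21, Cd4 -0.27, Cd5 -0.28, Cd6 -0.33, Themis -0.33, Cd27 -0.35, Ikzf3 -0.42, Rag1 -0.44, Ltb -0.45, Cd8a -0.46, Bcl11b -0.49, Cd2 -0.55, Tox -0.55, Cd3d -0.58, Tcf7 -0.60, Lat -0.63, Cd3e -0.75, Cd3g -0.81 and Cd247 -0.85. That fit has S595 as its lone knockout, assumed to vary like the controls, so these signs are those of S595 alone. Depth limits the 12 members with 5 reads or fewer in a library: the interval for Cd3e in S595, from 1 read, was 0.0037 to 0.953 times the pooled controls.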

Other observations

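The genes that, like 15 members, reached at least 3 times the highest control in S598 were listed, and all those named here were chosen after their values were seen. There were 55 such genes: the 15 members, 4 other T cell and thymocyte genes (Ccr9, Trbc1 and Trbc2 among them), 4 airway genes and 32 others. Ighm, given above with the B cell markers, was among these others. Among the 32, Myb, a transcription factor of blood progenitors and immature thymocytes, read 2.04, 0.872 and 1.92 normalised CPM in controls S591, S592 and S594 and 1.75, 17.9 and 4.64 in knockouts S595, S598 and S599. Camk4, a calcium-dependent kinase of thymocytes and neurons, read 2.40, 1.81 and 2.79 against 2.36, 12.2 and 5.74. ENSMUSG00000091282, for which no symbol was matched, read 0.0888, 1.01 and 0.0619 against 1.90, 228 and 40.03.

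Other genes of the 32 had another order of libraries. Nr4a1, an immediate early gene, read 26.4, 72.8 and 102 in the controls and 173, 580 and 59.1 in the knockouts, so it was high in S595 and within the controls in S599. The immediate early gene Fosb read 5.60, 11.7 and 11.7 against 25.2, 65.1 and 8.73. The red cell gene Hba-a1 read 101, 65.0 and 77.0 against 26.7, 369 and 549.8, and was highest in S599.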
